A study of Mus musculus with 6 samples.

Results

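Ttr, Kl, Clic6, Folr1, Kcnj13, Otx2, Aqp1, Slc4a5, Sostdc1 and Prlr are genes that mark the epithelium of the choroid plexus, and their RNA was followed through 6 bulk RNA-seq libraries of mouse dorsal hippocampus. They are 10 of the 55401 genes counted in each library, were matched by symbol to the GENCODE M21 annotation of GRCm38, and were all among the 19969 genes that passed the filter on low counts. The genes were selected on their CPM in these same libraries, known from an earlier look at the data, so their levels are given as a description and carry no test.

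The study asked what the long non-coding RNA Snhg11 does in the dentate gyrus (DG), the hippocampal region where new granule neurons are born. All animals were wild-type (WT) littermates from the Ts65Dn colony, were 4 months old, were described for this experiment as male, and received 50 µg of an antisense oligonucleotide (ASO) per hemisphere in the dorsal DG. ASOs are synthetic oligonucleotides that bind an RNA of matching sequence, which RNase H then cleaves. At 3 days after the injection the hippocampus was dissected, its dorsal part was separated from the ventral part by cutting, and RNA was extracted from the dorsal part with TRIzol. The Control-ASO group (3 libraries, genotype labelled WT) received the same nucleotides in scrambled order, and the Snhg11-ASO group (3 libraries, genotype labelled Snhg11 KD, meaning knockdown) received an ASO against Snhg11. The ASO is not restricted to a cell type, and the knockdown is partial and is no mutation of the gene. The study's methods name 3 mice per group, and the labels number the libraries without naming animals. Where libraries do not stand for separate animals, p-values cover the spread between libraries only.

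The choroid plexus is a vascular, villous tissue that hangs into the brain ventricles. Its epithelium secretes cerebrospinal fluid by moving ions and water across the cell, carries vitamins and hormones from blood to fluid, and releases proteins into the fluid. The plexus of the lateral ventricle is attached along the inner edge of the hippocampus through the choroidal fissure, so a dissected hippocampus can carry some of it. In bulk RNA, fewer cells of a type and less RNA per cell cannot be told apart.

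Each library held 28951250 to 43997537 read pairs counted on genes. Mitochondrial genes took 23.7% to 28.2% of these counts. Snhg11, the targeted gene, stood at 551, 436 and 209 CPM under Control-ASO and at 139, 65.4 and 69.4 CPM under Snhg11-ASO. Here and below, CPM (counts-per-million) are counts divided by the library total of tested genes and by its TMM (trimmed mean of M values) factor, and 3 values of a group are listed in the order of replicates 1, 2 and 3. The Snhg11 values of the groups did not overlap, so the targeted gene bore out the labels in direction. It was not called by the edgeR test of the groups described below, in which no gene was. The labelled tissue was borne out as well. Slc17a7, the vesicular glutamate transporter of excitatory neurons, was present at 614 to 748 CPM, and Prox1, a transcription factor of granule cells, at 82.1 to 167 CPM. Snhg11-ASO replicate 1 stood apart in genes outside the choroid plexus. F13a1, a gene of border macrophages, had 69.5 CPM there and 1.69 to 5.23 CPM in the other 5 libraries, and Socs3, a gene induced by cytokine signalling, had 80.7 CPM against 2.91 to 6.55 CPM. The main counts, and the marker lists in which it changes a count, are therefore also given without it. The study removed 1 Snhg11-ASO sample as an outlier and did not name it, and all 6 libraries are used here.

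All 10 choroid plexus genes split the libraries in the same way, and this split did not follow the ASO. In each of them Control-ASO replicates 1 and 3 and Snhg11-ASO replicate 1 lay above Control-ASO replicate 2 and Snhg11-ASO replicates 2 and 3. The lowest value was in Control-ASO replicate 2 for all 10 genes, and the highest was in Control-ASO replicate 1 for 9 genes and in Snhg11-ASO replicate 1 for Slc4a5. The summed level of the genes was 1976, 42.4 and 1284 CPM under Control-ASO and 1344, 133 and 75.5 CPM under Snhg11-ASO. Its mean was 1101 ± 979.9 CPM (SD, n = 3) under Control-ASO and 518 ± 716 CPM (SD, n = 3) under Snhg11-ASO, so the spread within each group exceeded the distance between the groups.

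**Figure D1:**
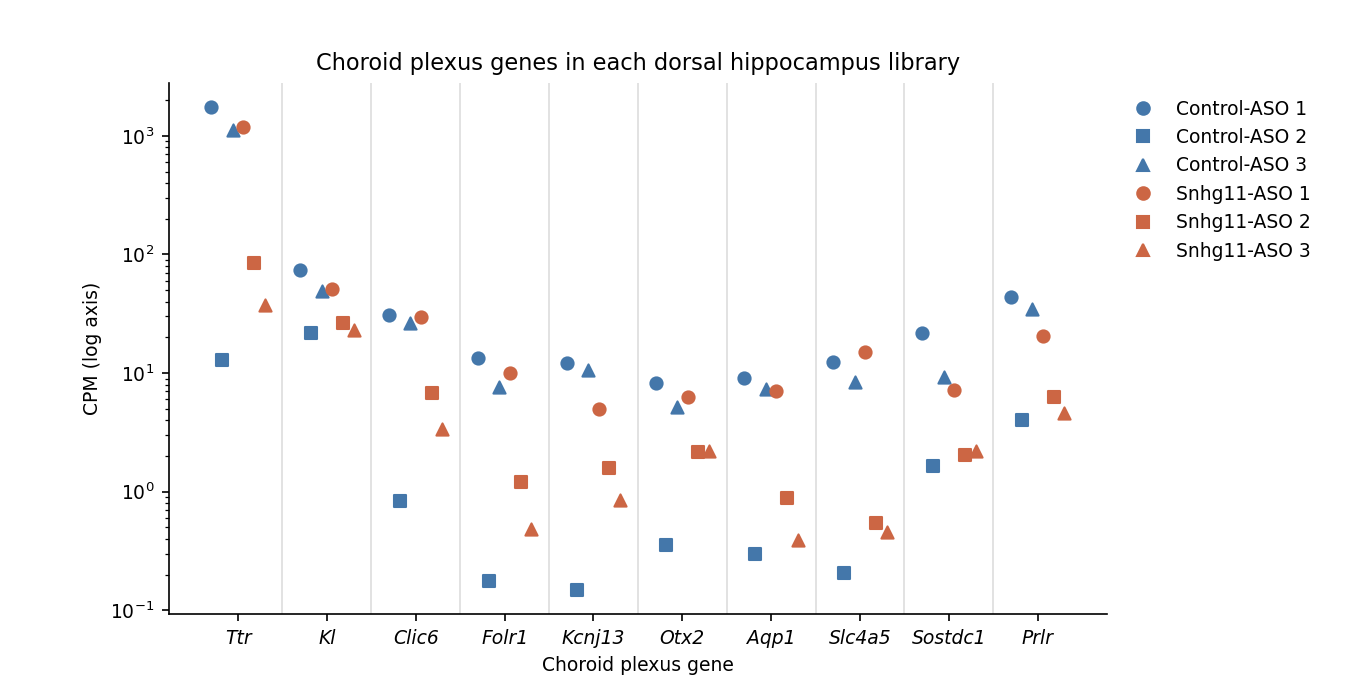
Level of each of the 10 choroid plexus genes in the 6 libraries, in CPM on a log axis, with Control-ASO in blue, Snhg11-ASO in orange and the marker shape for the replicate number. For every gene, Control-ASO replicate 2 is the lowest point, and Snhg11-ASO replicate 1 lies with Control-ASO replicates 1 and 3, so the groups overlap for all 10 genes.

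The plot of the 10 genes by library shows the same 3 libraries above the same 3 others in each column. The order inside these sets differed between genes, with Kcnj13 and Prlr higher in Control-ASO replicate 3 than in Snhg11-ASO replicate 1 where Ttr was lower. The spread differed as well, from 3.38-fold between the highest and the lowest library for Kl to 136-fold for Ttr.

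The first set comprises genes for secreted or shed proteins. Ttr encodes transthyretin, the carrier of thyroid hormone and of retinol-binding protein that the plexus releases into the cerebrospinal fluid. It stood at 1752, 12.9 and 1126 CPM under Control-ASO and at 1192, 85.4 and 37.7 CPM under Snhg11-ASO, which are 51530, 433 and 37916 against 45437, 3569 and 1646 read pairs. Its lowest value, in Control-ASO replicate 2, has an exact Poisson 95% interval of 11.7 to 14.1 CPM, so the distance to the other libraries is far beyond counting error (this and later intervals cover counting error only). Per kilobase of exon, Ttr averaged 590.9 RPKM (CPM divided by the exonic length in kilobases), while no other gene of the set exceeded 12.2 RPKM in any library. Ttr accordingly made up 88.6%, 30.3% and 87.6% of the summed CPM of the 10 genes under Control-ASO and 88.7%, 64.0% and 49.9% under Snhg11-ASO.

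Kl encodes klotho, a membrane protein that acts as a co-receptor of FGF23 and is also cut off and released into the fluid. It stood at 73.8, 21.8 and 49.1 CPM under Control-ASO and at 51.0, 26.4 and 23.2 CPM under Snhg11-ASO. The same libraries were high and low as for Ttr, but the low ones kept 29.6% to 35.8% of the highest value, whereas for Ttr they kept 0.735% to 4.88%. For each 1000 CPM of Ttr there were 42.1, 43.6 and 42.8 CPM of Kl in Control-ASO replicates 1 and 3 and Snhg11-ASO replicate 1, and 1697, 310 and 615 CPM in Control-ASO replicate 2 and Snhg11-ASO replicates 2 and 3. Kl is also known from hippocampal neurons. The part that neuronal Kl has in the low libraries was not tested.

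Sostdc1 encodes a secreted antagonist of BMP and Wnt signalling. Its level was 21.7, 1.64 and 9.32 CPM under Control-ASO and 7.27, 2.06 and 2.22 CPM under Snhg11-ASO. The 3 low libraries lay close together, and Control-ASO replicate 1 was well above all others.

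Genes of ion and water transport form the second set. Slc4a5 encodes a sodium bicarbonate cotransporter of the ventricle-facing membrane. It was counted at 12.4, 0.208 and 8.49 CPM under Control-ASO and at 15.2, 0.550 and 0.458 CPM under Snhg11-ASO, and was the only one of the 10 genes whose highest value came from a Snhg11-ASO library. Kcnj13 encodes the inward rectifier potassium channel Kir7.1. It had 12.1, 0.149 and 10.6 CPM under Control-ASO and 4.98, 1.58 and 0.847 CPM under Snhg11-ASO, so that Snhg11-ASO replicate 1 reached 41.2% of the highest library. Its exons overlap those of Gigyf2 on the opposite strand, by up to 355 bases, and the counts used take strand into account.

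Aqp1, the water channel aquaporin 1, was found at 9.04, 0.297 and 7.33 CPM under Control-ASO and at 7.06, 0.885 and 0.389 CPM under Snhg11-ASO. Control-ASO replicates 1 and 3 and Snhg11-ASO replicate 1 differed by little for this gene, with the lower ones at 81.1% and 78.0% of the highest. Clic6 belongs to the family of chloride intracellular channels. Its values were 30.7, 0.832 and 26.2 CPM under Control-ASO and 29.6, 6.84 and 3.39 CPM under Snhg11-ASO. In the low libraries Clic6 kept a larger part than Ttr did, with 64.7, 80.1 and 89.9 CPM for each 1000 CPM of Ttr in Control-ASO replicate 2 and Snhg11-ASO replicates 2 and 3, and 17.5 to 24.8 CPM in the other 3 libraries.

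Receptors are the third set. Folr1 encodes folate receptor alpha, which carries folate through the epithelium into the cerebrospinal fluid. It was present at 13.4, 0.178 and 7.69 CPM under Control-ASO and at 10.1, 1.20 and 0.481 CPM under Snhg11-ASO. Folr1 kept the most even proportion to Ttr of the 10 genes, between 6.83 and 14.0 CPM for each 1000 CPM of Ttr over a 136-fold range of Ttr. The value in Control-ASO replicate 2 rests on 6 read pairs and has an exact Poisson 95% interval of 0.0655 to 0.388 CPM. Prlr encodes the receptor of the hormone prolactin. Its level was 43.4, 4.04 and 34.6 CPM under Control-ASO and 20.6, 6.34 and 4.58 CPM under Snhg11-ASO. Snhg11-ASO replicate 1 reached 47.3% of the highest library for Prlr and 68.0% for Ttr. A stretch of 100 exonic bases of Prlr is shared with Gm21973 on the same strand, and read pairs that fall there are counted on neither gene.

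Otx2 is the transcription factor of the set, a homeodomain protein needed for the choroid plexus to form. It stood at 8.19, 0.357 and 5.17 CPM under Control-ASO and at 6.35, 2.18 and 2.22 CPM under Snhg11-ASO. Snhg11-ASO replicates 2 and 3 held 26.6% and 27.1% of the highest Otx2 value, and Control-ASO replicate 2 held 4.35%. Otx2 shares up to 168 exonic bases with Gm49154 on its own strand and up to 154 with Otx2os1 on the opposite strand.

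Otx2-type homeodomain proteins are known to bind the letters TAATCC. On the opposite strand the same site reads GGATTA. Both readings were searched in the 250 bases before each transcription start listed by RefSeq for GRCm38.p6, because the genes move together and a factor with this motif is one of them. Of the 10 genes, 6 have windows there, and 1 of their 11 windows held the motif. It lies in a window of Otx2 itself, 211 bases before that start, on the minus strand at chr14:48665285-48665350. Of 25 other epithelium genes described further on, 22 have windows there, and 3 of their 27 windows held the motif. These are windows of Abca4 (chr3:122044372-122044437, plus strand), Ace (chr11:105967891-105967947, plus strand) and Rbm47 (chr5:66152139-66152204, minus strand). Of all 32851 windows of the table, 6.25% held the motif, so a match describes these letters and no binding. The stretches are printed 5′ to 3′ on the strand of the gene with the motif in capitals, to show how the match sits in each.
Otx2: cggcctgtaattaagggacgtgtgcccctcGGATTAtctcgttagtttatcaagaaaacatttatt
Abca4: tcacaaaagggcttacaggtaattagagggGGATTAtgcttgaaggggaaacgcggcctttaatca
Ace: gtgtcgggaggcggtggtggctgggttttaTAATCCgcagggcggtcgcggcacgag
Rbm47: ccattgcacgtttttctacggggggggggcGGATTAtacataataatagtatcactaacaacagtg

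The genes lie on different chromosomes apart from one pair. Kl is at chr5:150952607-150993817, Clic6 at chr16:92485736-92541243, Folr1 at chr7:101858331-101870788 and Kcnj13 at chr1:87386363-87394729. Otx2 is at chr14:48657677-48673819, Sostdc1 at chr12:36314139-36318452 and Prlr at chr15:10177238-10349180. Ttr is on chromosome 18. Aqp1 (chr6:55336432-55348555) and Slc4a5 (chr6:83219828-83304945) share chromosome 6 without being neighbours. The positions are those of GENCODE M21 on GRCm38, and values are counts over the exons of each gene.

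Set against the groups, all 10 genes had a lower mean under Snhg11-ASO, and none of them separated the groups. The fitted log2 difference, Snhg11-ASO minus Control-ASO, ran from -1.63 (standard error 1.21) for Kcnj13 to -0.35 (standard error 0.93) for Otx2. For Ttr it was -1.14 (standard error 1.64), from a mean of 963 ± 881 CPM (SD, n = 3) to 438 ± 653 CPM (SD, n = 3). Sostdc1 went from 10.9 ± 10.1 to 3.85 ± 2.96 CPM (SD, n = 3 each), with a difference of -1.50 (standard error 0.89), and Prlr from 27.4 ± 20.7 to 10.5 ± 8.76 CPM, with -1.38 (standard error 0.88). For 6 of the 10 genes the standard error was larger than the difference.

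The median difference over the 10 genes was -0.93, beside 0.01 over all genes tested. One library more or less decided this value. Without Snhg11-ASO replicate 1 the median was -2.49, without Control-ASO replicate 2 it was -1.50, and without Control-ASO replicate 1 it was -0.25. Without Snhg11-ASO replicate 2 or 3 it was -0.50 or -0.41. Otx2 turned higher under Snhg11-ASO in 2 of 13 alternative settings and Slc4a5 in 3 of 13, and the other 8 genes stayed lower in all 13. None of the 10 genes had groups that did not overlap, and the share of such genes over all genes is not given here. A different measure, the quasi-likelihood test of edgeR, called 0 (0%) of the 19959 other genes between the groups at an adjusted p of 0.05 (Benjamini-Hochberg). At an unadjusted p under 0.05 there were 1619. DESeq2 called 258 of the 19959.

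The split they share shows in their correlations. Over the 45 pairs of the 10 genes, Pearson's r of log2 CPM over the 6 libraries lay between 0.846 and 0.998 with a median of 0.956, and was at least 0.919, with a median of 0.976, after the mean of each group was taken off. Ttr and Folr1 had the highest r. These values describe 6 libraries that fall into 3 with a high and 3 with a low level, with a gap between, so that r largely reflects the gap, and a relation inside either set of 3 cannot be tested. The mean of the log2 CPM of the 10 genes, called the choroid plexus level below, was 4.90, 0.16 and 4.36 under Control-ASO and 4.31, 1.91 and 1.30 under Snhg11-ASO.

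Other genes of the choroid plexus epithelium followed the level. A list of 25 such genes, written from general knowledge with earlier results of these data known, summed to 1357, 233 and 1062 CPM under Control-ASO and to 1157, 360 and 265 CPM under Snhg11-ASO, with the same 3 libraries on top. In a model of all genes with group and level as terms, all 25 had a positive slope, with a median of 0.68 on the log2 scale per log2 unit of the level, beside 0.005 over all other genes tested. The list and the genes behind the level were both chosen with these data known, so the counts that follow describe them and are no independent test. By edgeR's quasi-likelihood test at an unadjusted p under 0.05, 24 of the 25 rose with the level, where the share over the 19959 genes was 4.14%. After Benjamini-Hochberg adjustment over all genes, 7 of the 25 rose, where 9 genes (0.0451%) rose in all and 0 fell. In DESeq2 24 of the 25 rose, beside 119 genes (0.596%) in all, and 43 genes fell. The 9 genes called by edgeR were all among the 119 that rose in DESeq2. The labels do not say whether replicate numbers pair the libraries. Deviations of same-numbered libraries from their group means correlated at 0.103 to 0.297, and different-numbered libraries were not compared. With the replicate number as a block edgeR called 2 genes and 0 of the 25, of which 18 kept an unadjusted p under 0.05. Without Snhg11-ASO replicate 1, 21 genes and 11 of the 25 were called, with all 9 genes of the full fit among them, and without Control-ASO replicate 1 the count was 0. Without Control-ASO replicate 2 it rose to 3613 of 20783 genes (2083 rising, 1530 falling) and 20 of the 25. The Control-ASO levels left, 4.90 and 4.36, are then close. With group in the model the slope rests mostly on Snhg11-ASO replicate 1 (4.31) against replicates 2 and 3 (1.91 and 1.30). Following the level cannot be told apart there from other traits of that library. Without Control-ASO replicate 3 or Snhg11-ASO replicate 3 the count was 3 genes, with 2 and 3 of the 25.

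**Figure D2:**
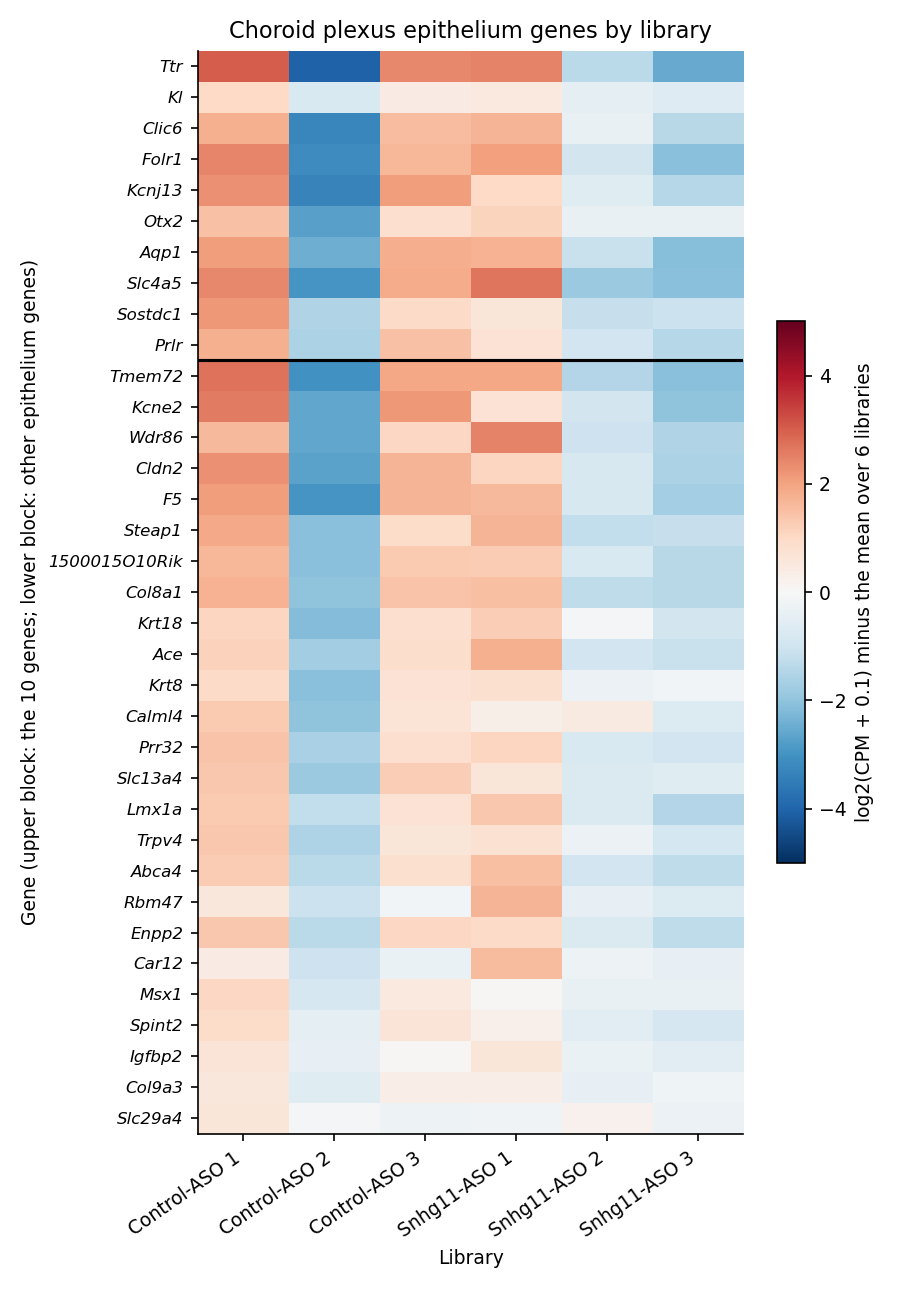
Log2(CPM + 0.1) of the 10 choroid plexus genes (above the line) and of 25 other epithelium genes (below it) in each library, as the difference from the gene's mean over the 6 libraries, red for higher and blue for lower. Columns Control-ASO replicates 1 and 3 and Snhg11-ASO replicate 1 are red in nearly all rows, and Control-ASO replicate 2 is the bluest column.

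The heatmap of the epithelium genes shows both blocks with the same pattern of columns, fading toward genes such as Col9a3 and Slc29a4 at the bottom. The genes of the list with the smallest p come first. Tmem72, a membrane protein, had 32.2, 0.505 and 18.4 CPM under Control-ASO and 18.4, 1.65 and 1.05 CPM under Snhg11-ASO, with a slope of 1.31 ± 0.05 (standard error, edgeR adjusted p = 0.00198). F5, coagulation factor V, had 32.9, 0.892 and 25 CPM under Control-ASO and 23.3, 4.35 and 2.29 CPM under Snhg11-ASO, with a slope of 1.10 ± 0.05 (standard error, edgeR adjusted p = 0.00203). Both genes ranked the 6 libraries exactly as the level did.

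Cldn2, the pore-forming claudin of leaky epithelia, had 12.5, 0.297 and 8.10 CPM under Control-ASO and 5.27, 1.39 and 0.756 CPM under Snhg11-ASO. Its slope was 1.05 ± 0.08 (standard error, edgeR adjusted p = 0.0193). Enpp2 encodes autotaxin, a secreted enzyme that makes lysophosphatidic acid, and was the most abundant gene of the list. It had 998, 156 and 807 CPM under Control-ASO and 768, 241 and 164 CPM under Snhg11-ASO. With a slope of 0.61 ± 0.04 (standard error, edgeR adjusted p = 0.00831) its range was 6.42-fold, far narrower than that of Ttr. Enpp2 is known from oligodendrocytes as well, and their part in its lower libraries was not tested.

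The other called genes of the list were 1500015O10Rik, also named Ecrg4, with a slope of 0.85 ± 0.05, Col8a1, a short-chain collagen, with 0.89 ± 0.07, and Wdr86 with 1.20 ± 0.11 (standard errors). In edgeR their adjusted p-values were 0.00781, 0.0207 and 0.0390. Mfrp and Lbp were called without being on the list. Mfrp, a frizzled-related membrane protein known from the eye, stood at 13, 0.297 and 6.71 CPM under Control-ASO and at 9.44, 0.909 and 0.595 CPM under Snhg11-ASO. Lbp, the lipopolysaccharide-binding protein, stood at 12.1, 1.01 and 9.5 CPM and at 13.1, 4.26 and 2.11 CPM. Both shared the split of the 10 genes, and Lbp, like Slc4a5, peaked in Snhg11-ASO replicate 1. Their adjusted p-values from edgeR were 0.00794 and 0.0193.

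Slc29a4, a plasma membrane monoamine transporter, was the gene of the list that did not follow. It had 17.7, 11.4 and 9.86 CPM under Control-ASO and 10.4, 13.5 and 9.48 CPM under Snhg11-ASO, and its slope was 0.05 ± 0.07 (standard error). Car12, a membrane-bound carbonic anhydrase, followed loosely. It had 54.2, 19.9 and 32.8 CPM under Control-ASO and 124, 34.2 and 30.9 CPM under Snhg11-ASO, with 1 library, Snhg11-ASO replicate 1, above all others. Its slope was 0.38 with this library and 0.26 without it. Between the ASO groups, 21 of the 25 genes were lower and 4 higher under Snhg11-ASO with a median log2 difference of -0.55, and edgeR called 0 of them, with 0 at an unadjusted p under 0.05. DESeq2 also called 0 of the 25. The count at an unadjusted p depended on the setting. Without Snhg11-ASO replicate 1, edgeR gave 5 of the 25 an unadjusted p under 0.05, beside 2007 of 20216 genes tested. Without Control-ASO replicate 2 there were also 5, beside 1676 of 20783. With the level as a term there were 4, beside 1691 of 19959. In each of these edgeR called 0 of the 25.

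Genes whose pattern was most like that of the 10 were ranked by Pearson's r of log2 CPM with the level over the 6 libraries, among the 4383 other genes with a mean of at least 1 CPM and a log2 range of at least 1. Of these, 78 (1.78%) had an r above 0.9, all 78 also after the group means were taken off, and 17 had an r below -0.9. The gap between the libraries bears on these values as it does on those of the pairs. Of the 22 epithelium genes among the candidates, 17 had an r above 0.9, and 11 of the 20 genes with the highest r were from that list. For those 20 genes r lay between 0.974 and 0.999, Spearman's rho was at least 0.829, and r was at least 0.931 without the libraries farthest from the median level, Control-ASO replicate 2 and Snhg11-ASO replicate 3. With counts of both strands the lowest r of the 20 was 0.873, and without Snhg11-ASO replicate 1 it was 0.971.

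The genes of the top 20 that were on no list were St6galnac2, Mfrp, Cdkn1c, Sulf1, Cgnl1, Slc2a12, Perp, Lbp and Col8a2. St6galnac2, a sialyltransferase, had an r of 0.999 at a low and narrow level, with 5.0, 1.61 and 4.33 CPM under Control-ASO and 4.46, 2.58 and 2.18 CPM under Snhg11-ASO. Sulf1, a secreted enzyme that removes sulphate from heparan sulphate, stood at 35.1, 8.86 and 29.4 CPM and at 31.7, 13.7 and 15.4 CPM. Cgnl1 encodes a tight junction protein, Slc2a12 a glucose transporter and Cdkn1c the cell cycle inhibitor p57. Cgnl1 spanned 2.51-fold, Slc2a12 4.27-fold and Cdkn1c 2.62-fold between the highest and the lowest library. Col8a2, the partner chain of Col8a1, had 14.3, 0.892 and 8.97 CPM under Control-ASO and 8.37, 3.80 and 2.63 CPM under Snhg11-ASO, a 16.0-fold span. Prr32, Trpv4, Steap1, Slc13a4 and Col9a3 completed the 20 from the list of epithelium genes.

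The genes with the lowest r were Gm5905, Trim59, Rsl1, Cacng6 and C230012O17Rik, between -0.941 and -0.927. Cacng6, a calcium channel gamma subunit, was the clearest of them after the group means were taken off, with an r of -0.993. It had 3.67, 9.54 and 3.65 CPM under Control-ASO and 5.14, 9.43 and 10.9 CPM under Snhg11-ASO. None of the 5 was called by edgeR in the model with group and level.

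**Figure D3:**
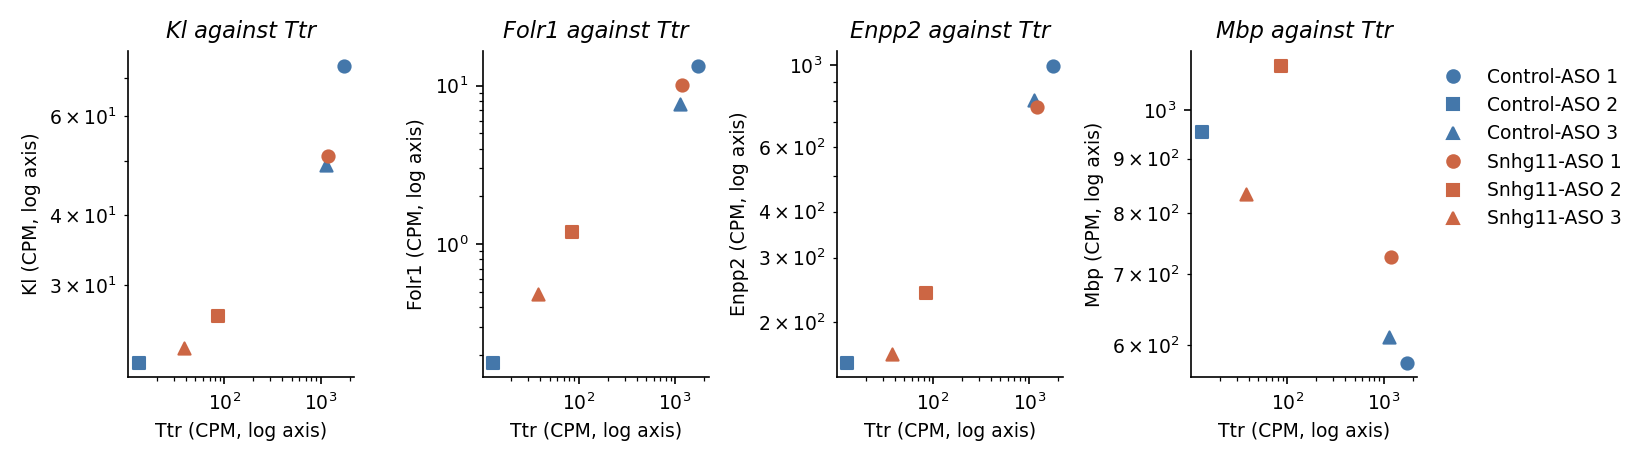
Levels of Kl, Folr1, Enpp2 and Mbp against the level of Ttr in the 6 libraries, both in CPM on log axes, Control-ASO in blue and Snhg11-ASO in orange. Kl spans 3.38-fold and Folr1 74.9-fold over the same 136-fold range of Ttr, Enpp2 spans 6.42-fold, and Mbp is higher in the 3 libraries that are low in Ttr.

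The plots against Ttr set side by side a gene that falls with Ttr in near proportion (Folr1), genes that flatten out at the low end (Kl and Enpp2) and an oligodendrocyte gene that runs the other way (Mbp).

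Partners of the 10 genes in their pathways were read from lists made for each function. Of the 19959 genes outside the 10, 7.08% had an unadjusted p under 0.05 for the level in either direction (8.8% of those tested without Snhg11-ASO replicate 1), and the counts of small lists are to be read against that share. Of 13 genes of ion and fluid transport, 10 had a positive slope and edgeR gave 8 an unadjusted p under 0.05, none of which passed the adjustment, and Car12, Kcne2 and Trpv4 among the 8 are also counted in the epithelium list. Atp1b1, a subunit of the sodium pump that neurons use as well, was at 775 to 899 CPM. Slc4a2, a chloride bicarbonate exchanger named here after its values were seen, tracked the level at 37.4, 19.8 and 32.2 CPM under Control-ASO and 33.0, 23.7 and 23.1 CPM under Snhg11-ASO (r = 0.992 over 6 libraries). Kcne2, a potassium channel subunit, had 7.95, 0.119 and 5.85 CPM under Control-ASO and 2.05, 0.598 and 0.229 CPM under Snhg11-ASO, and was called without Snhg11-ASO replicate 1.

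Genes that handle the cargo of Ttr came next. Of 11 genes of retinoid and thyroid hormone handling, 1, Crabp2, a retinoic acid carrier, had an unadjusted p under 0.05 (slope 0.46), against 4 without Snhg11-ASO replicate 1, and Thra, a thyroid hormone receptor, stayed between 364 and 437 CPM. Among 7 folate genes, Slc19a1, the reduced folate carrier, had an unadjusted p of 0.00514 from edgeR with a slope of 0.18 ± 0.04 (standard error), and Mthfd1, an enzyme of one-carbon metabolism, was at 36.3 to 41.3 CPM. None of 7 genes of FGF reception and of shedding around klotho reached an unadjusted p under 0.05. Fgfr1, a receptor that works with klotho, was at 68.5 to 169 CPM, with the highest value in Snhg11-ASO replicate 1.

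Downstream of the prolactin receptor, 2 of 8 tested genes, Socs2 and Cish, had an unadjusted p under 0.05, and 1, Socs2, without Snhg11-ASO replicate 1, where Cish was highest. Socs2, a feedback inhibitor, stood at 24.5, 13.4 and 17.1 CPM under Control-ASO and at 21, 16.8 and 13.4 CPM under Snhg11-ASO. Prl and Gh, the hormones themselves, did not pass the filter on low counts. Of 13 genes around Sostdc1, ligands and receptors of BMP and Wnt, 3 had an unadjusted p under 0.05, the ligands Bmp6 (slope 0.23) and Bmp7 (0.25) and the target Msx1 (0.32), which is on the epithelium list too, and the receptors Bmpr2, Lrp6, Bmpr1a and Lrp4 were not among them. None of these lists had a gene called after adjustment with all 6 libraries.

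Markers of other cells and regions that a dissection can carry along were read in the same way. Genes of oligodendrocytes, the cells that make myelin, ran against the level, with 1642, 3030.1 and 2022 summed CPM for 9 genes under Control-ASO and 1696, 3737 and 2961 CPM under Snhg11-ASO. All 9 had a negative slope, edgeR gave 8 an unadjusted p under 0.05 (9 without Snhg11-ASO replicate 1), where 2.94% of all other genes fell with the level at that p, and 0 passed the adjustment. Mbp, myelin basic protein, stood at 578, 954 and 610.3 CPM under Control-ASO and at 727, 1102 and 834 CPM under Snhg11-ASO. The summed myelin genes were thus higher in each of the 3 libraries that were low in the choroid plexus genes than in the other 3, and their part in the result was not tested.

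Fibroblasts of the meninges went partly with the level. Their 14 genes summed to 122, 42.1 and 137 CPM under Control-ASO and to 70.2, 62.0 and 73.8 CPM under Snhg11-ASO, and 8 of them had an unadjusted p under 0.05 (10 without Snhg11-ASO replicate 1). Dcn, the matrix protein decorin, stood at 56.6, 7.97 and 44.1 CPM and at 18.2, 14.0 and 17.1 CPM, so Control-ASO replicates 1 and 3 were high and Snhg11-ASO replicate 1, high in Ttr, was not.

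Genes of ependymal cells, the ciliated lining of the ventricle, did not share the split. Their summed level over 15 genes was 36.8 to 58.2 CPM, with the lowest value in Snhg11-ASO replicate 1, where Ttr was high. Foxj1, the regulator of motile cilia, was at 6.12, 3.15 and 5.55 CPM under Control-ASO and at 4.25, 8.37 and 6.62 CPM under Snhg11-ASO. Among 14 tested ependymal genes 1, 1110017D15Rik, had an unadjusted p under 0.05 for the level. Without Snhg11-ASO replicate 1 there were 5 of 14, and 12 had a positive slope. Endothelial genes summed to 141 to 173 CPM in the 6 libraries, with 1 of 7, Pecam1, at an unadjusted p under 0.05 (2 without Snhg11-ASO replicate 1, where Pecam1 was highest), and border macrophage genes to 93.4 CPM in Snhg11-ASO replicate 1 and to 7.70 to 14.2 CPM in the others, with 1 of 8, Pf4, at an unadjusted p under 0.05 and 0 without that library.

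**Figure D4:**
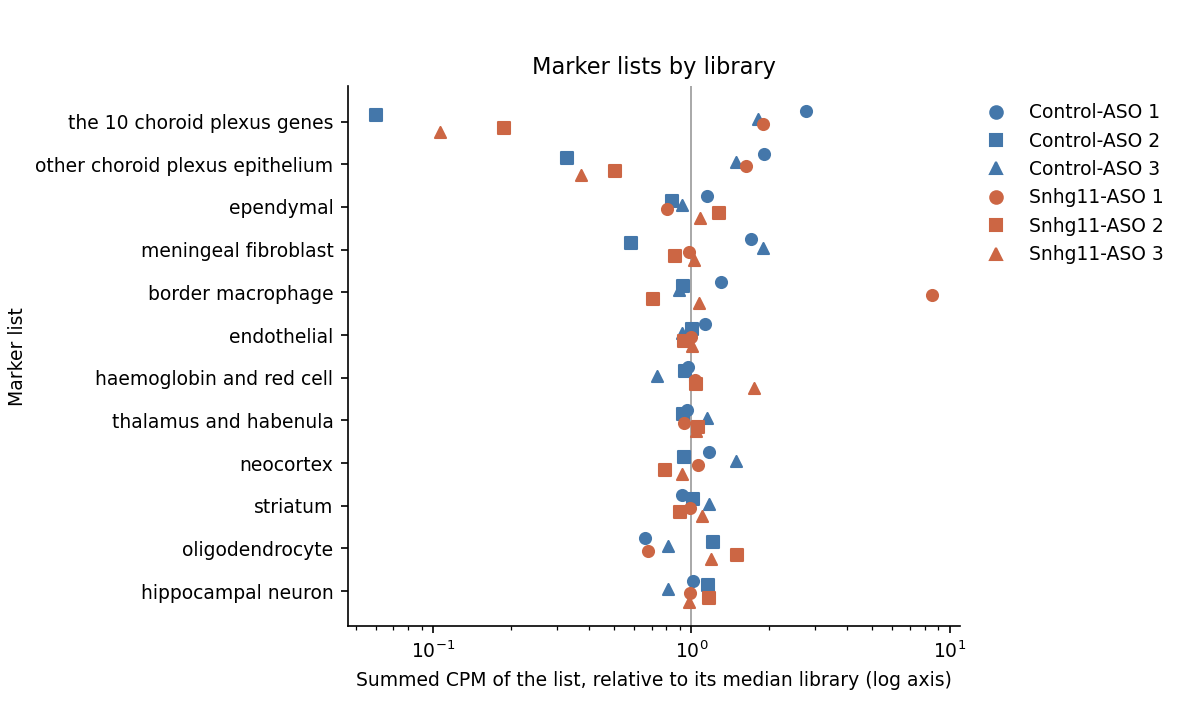
Summed CPM of the 10 choroid plexus genes and of 11 lists of marker genes in each library, relative to the median of the 6 libraries (log axis), Control-ASO in blue and Snhg11-ASO in orange. The choroid plexus genes and the other epithelium genes have the same 3 libraries on the right, oligodendrocyte genes have those 3 on the left, and border macrophage genes are far right in Snhg11-ASO replicate 1 alone.

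The plot of the marker lists by library places the spread of the choroid plexus genes beside that of the other lists. Among hippocampal neuron genes, 2 of 8, C1ql2 and Wfs1, had an unadjusted p under 0.05 for the level, both with a negative slope, and 0 passed the adjustment, and their sum was 1548 to 2232 CPM. With the level as a term in the model, the log2 difference of Snhg11 was -2.12 (standard error 0.44), beside -2.13 (standard error 0.43) without it. Across all genes the term left 0 genes called between the groups in edgeR, with 1691 at an unadjusted p under 0.05. DESeq2 called 248 genes with the term, in an analysis added after the data were seen, and 201 were shared, which is 77.9% of the 258 genes called without it and 81.0% of the 248. None of the 258 had an r with the level above 0.9 or below -0.9. Of all 19959 genes, 247 had an r above 0.9. The level varied widely within both groups, so a gene that tracks it closely can hardly be called between them. This count therefore cannot tell whether the level had a part in the 258 calls.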

How the data were processed

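Per the labels and the study's methods, ribo-depleted total RNA was made into stranded TruSeq libraries and sequenced as paired reads of 50 bases, and the authors aligned the reads to GRCm38 (mm10) with STAR 2.5.2a. The authors deposited raw counts of read pairs per gene, unnormalized, for each library and with replicates kept apart. The methods name another counter, while the deposited files have the layout STAR writes. Read pairs on exons of several genes or at several places are not counted. The reverse-strand counts were used (96.2% to 96.8% of pairs with a strand). The 4 summary lines of each file, 43.5% to 51.4% of 59542425 to 77826229 pairs, were left out.

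The 10 genes and all lists were chosen with earlier results of these data known. Symbols came from GENCODE M21, which matched 55141 of 55401 identifiers. Genes were filtered with filterByExpr (minimum count 10) and scaled with TMM, and edgeR 4.0.16 quasi-likelihood fits with Benjamini-Hochberg adjustment over all genes (R 4.3.3) were made for the group and for group plus choroid plexus level, the mean log2 CPM of the 10 genes (prior count 2). The 10 genes are left out of every count of calls. The common biological coefficient of variation was 0.266 and 0.233. The fits were tested on simulated data. DESeq2 1.42.0 was an alternative, beside other scaling, strand, filters, definitions of the level, the replicate block and leaving out each library. Deviations of same-numbered libraries from their group means correlated at 0.297, 0.179 and 0.103, with no comparison to different-numbered libraries. Only the block fit took the libraries as paired by number, and no source says what a number marks.

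The genes named are the 10, the 20 with the highest and 5 with the lowest r with the level, those called with the level, the 4 most abundant tested genes of each list with any called, and Snhg11. Slc4a2, Kcne2, Slc29a4, Abca4, Rbm47, Prl, Gh, Gm11942, Gm15459 and single genes behind counts of 5 or fewer fall outside this rule and were named after their values were seen. Some genes that the rule would name are not reported here. Sequences are from RefSeq.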

Additional observations from a re-analysis of the deposited data

How the results depend on the processing

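The group comparison gave 0 edgeR calls in all settings except without Snhg11-ASO replicate 1, so 0 to 2 genes over the left-out libraries, while DESeq2 called 258 genes and, with the level as a term (added after seeing the data), 248. Epithelium genes were called in none of these. For the choroid plexus level, edgeR called 9 genes, 7 of them among the 25 epithelium genes. DESeq2 called 162 and 24. Without a filter edgeR called 56 and 15, at a mean of at least 10 counts 18 genes, and with no group term 18 and 11. With the replicate block, which treats same-numbered libraries as pairs, it called 2 (Gm11942 and Gm15459) and 0, and 0 of the 9 were kept. The block also takes degrees of freedom from a fit of 6 libraries, and what that adds to the lost calls was not tested. In edgeR, where alone it was run, the block left the 0 calls between the groups at 0. Leaving out 1 library gave 0 to 3613 genes and 0 to 20 epithelium genes, the extremes without Control-ASO replicates 1 and 2. The 3613 are of 20783 genes tested, in a fit whose slope rests mostly on Snhg11-ASO replicate 1. The cause of these extremes was not tested. Over 17 settings the 9 called genes kept a positive slope, and 34 of their 153 values no longer passed the threshold. With 3 libraries a group and 6 levels in 2 sets, the level has few degrees of freedom behind it, and in Control-ASO replicate 2 the counts of Folr1, Kcnj13 and Slc4a5 are 6, 5 and 7 read pairs.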

Other observations

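Markers of regions next to the hippocampus were read beside the choroid plexus genes. Genes of the neocortex summed to 256, 205 and 326 CPM under Control-ASO and to 232, 172 and 201 CPM under Snhg11-ASO. All 7 had a positive slope with the choroid plexus level, 3 (Rasgrf2, Cux2 and Fezf2) at an unadjusted p under 0.05 in edgeR (2 without Snhg11-ASO replicate 1, Cux2 no longer among them), and 0 passed the adjustment. Rasgrf2, a gene of upper cortical layers, had 123, 88.2 and 122 CPM under Control-ASO and 103, 86.6 and 94.1 CPM under Snhg11-ASO. Tshz2 was highest in Control-ASO replicate 3, at 85.5 CPM, and at 19.0 to 47.6 CPM in the other libraries.

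Genes of the thalamus and habenula summed to 124 to 154 CPM and those of the striatum to 40.8 to 52.8 CPM. Of these, 2 of 12 (Plekhg1 and Gpr151, with slopes of -0.11 and 0.37) and 0 of 6 tested genes had an unadjusted p under 0.05 for the level. Without Snhg11-ASO replicate 1, in which Gpr151 was highest, 3 of 12 did and Gpr151 did not. Slc17a6, a glutamate transporter of thalamic neurons, stood at 41.7 CPM in Control-ASO replicate 3 and at 16.6 to 20.6 CPM elsewhere. Genes of red blood cells summed to 99.7 CPM in Snhg11-ASO replicate 3 and to 41.9 to 59.3 CPM in the others, and 0 of 5 had an unadjusted p under 0.05.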
